A study of Mus musculus with 6 samples.

Results

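Toll-like receptors are described here in lungs of mice that make IL13 in the airway and in lungs of wild-type mice. The 10 receptor genes Tlr1 to Tlr9 and Tlr13 were chosen by symbol with earlier results of this same contrast known, and every probe set whose only gene symbol is one of them was taken, which gave 16 probe sets of 45037 on the array. Because the contrast was known when the genes were chosen, their differences between genotypes are given as a description, without p-values. In the IL13-transgenic mice (CC10-rtTA-IL13) the promoter of CC10, the club cell gene Scgb1a1, drives an activator that switches on IL13 when doxycycline is given. All mice, wild-type ones included, were C57BL/6, 6 to 10 weeks old and drank water with doxycycline at 2 mg/mL for 7 days, after which the upper left lobe was taken. Lungs of 2 IL13-transgenic and 4 wild-type mice were measured on 1 Affymetrix array each, and the labels call them biological replicates.

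Toll-like receptors recognise molecules of microbes and of damaged cells. Tlr1, Tlr2, Tlr4, Tlr5 and Tlr6 sit on the cell surface and bind lipopeptides, lipopolysaccharide or flagellin, whereas Tlr3, Tlr7, Tlr8, Tlr9 and Tlr13 sit in endosomes and bind nucleic acids. Most of them signal through the adaptor Myd88, Tlr3 through Ticam1 and Tlr4 through both, to NF-κB and interferon regulatory factors. In the lung, macrophages, dendritic cells and airway epithelium carry them.

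Values are the submitters' RMA values, a log2 scale on which a step of 1 is a doubling, and they ran from 2.297 to 15.192 with array medians of 5.28 to 5.31. The small number of arrays limits the precision. Lung markers were bright, with means of 15.15 (transgenic) and 15.12 (wild-type) for the surfactant gene Sftpc. The club cell gene Scgb1a1 had means of 14.84 and 15.03 and did not pass, but 3 of the 6 club and ciliated cell markers fell (differences of -1.63 for Cyp2f2, -1.58 for Scgb3a2 and -1.14 for Tppp3) and 0 rose (limma, likewise 0 at an unadjusted p under 0.05). Of all 18193 genes 8.43% rose and 10.5% fell by that rule (limma, adjusted p under 0.05). The labels give no sex. All 3 probe sets of Xist read between 8.32 and 12.17 in every array and all 9 Y-linked ones between 2.56 and 3.57, so these genes did not separate the genotypes. Wild-type replicate 4 had the highest summed level of heart markers (9796 against 2456 to 3757 linear units in the other wild-type and 258.9 to 1440 in the transgenic arrays) and of adipocyte markers (1950 against 325.2 to 677.7 and 37.7 to 264.4), and their part in the results was not tested. A mean at or below 4.63, the 95th percentile of the wild-type means of 44 olfactory receptor probe sets, is called near the floor below, and a difference from a wild-type mean near the floor is a lower bound where the transgenic mean is above the floor. Where both means are near the floor, the difference is no bound.

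The receptors are described in 3 sets, formed by place in the cell and by size of difference. Tlr13, Tlr7 and Tlr8, endosomal receptors, had the largest measured differences (at the brightest probe set of Tlr7) and were 5.61-fold, 4.66-fold and at least 2.59-fold higher in transgenic lungs. Tlr4, Tlr1, Tlr2 and Tlr6, receptors of the cell surface, were 2.30-fold, 2.16-fold, 1.86-fold and at least 1.45-fold higher (Tlr4 at the probe set with its largest difference). This order is that of the measured values at these probe sets, and the bounds of Tlr8 and Tlr6 fix no rank against the others. The measured differences of Tlr8 (1.37 ± 0.12) and Tlr4 (1.20 ± 0.12) lay close, so no gap divides the first 2 sets. At its brightest probe set, 1418162_at, Tlr4 was 1.87-fold higher, below Tlr1 and beside Tlr2. Tlr3, Tlr5 and Tlr9 differed by between -0.30 and 0.16 on the log2 scale. In limma's fit of all probe sets, 9 of the 16, from 7 genes, passed as higher (adjusted p under 0.05) and 0 as lower, and 0 were lower at an unadjusted p under 0.05. Among all probe sets 5.39% were higher and 5.99% lower by the same rule, and since the genes were chosen with this contrast known, nothing is read from the difference between these shares. Without transgenic replicate 1 the count of 9 was 5, and the shares of all probe sets were then 2.36% and 1.32%. Both transgenic values lay above all wild-type values for 11 of the 16, below them for 1 and among them for 4, where 17.5% of all probe sets lay above and 17.2% below. The median difference was 0.71 over the 16 probe sets and 0.0079 over all.

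**Figure D1:**
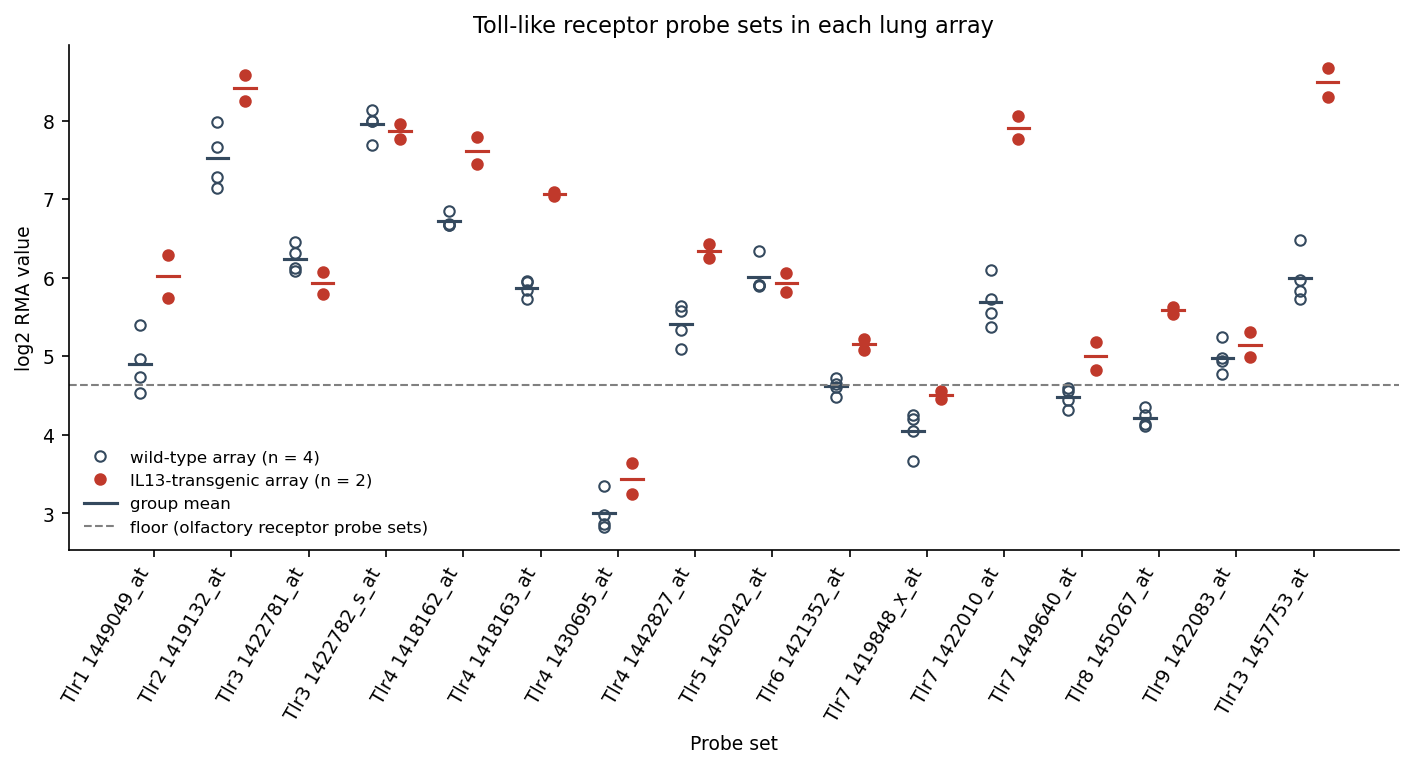
Log2 RMA value (vertical axis) of the 16 Toll-like receptor probe sets (horizontal axis) in each array, with open circles for the 4 wild-type and filled circles for the 2 transgenic arrays, a line at each group mean and a dashed line at the floor of 4.63. The transgenic values of Tlr13, of 1 of the 3 Tlr7 probe sets and of Tlr8 lie far above the wild-type values, and those of Tlr3, Tlr5 and Tlr9 lie among or close to them.

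Tlr13, a receptor of mice for bacterial ribosomal RNA, had the largest measured difference. Its probe set 1457753_at gave 8.67 and 8.30 for the transgenic lungs, whereas wild-type lungs 1 to 4 gave 5.83, 5.73, 5.96 and 6.48. The difference was 2.49 ± 0.21 (SE from limma, n = 2 and 4), and the lower transgenic array stood 1.83 above the highest wild-type array. Wild-type replicate 4 was the highest of its group.

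Tlr7, the receptor for single-stranded RNA, was measured by 3 probe sets that did not give the same size. The brightest, 1422010_at, gave 8.06 and 7.76 for the transgenic lungs, whereas wild-type lungs gave 5.37, 5.55, 5.73 and 6.10, which is a difference of 2.22 ± 0.20. The groups stood 1.66 apart, and wild-type replicate 4 was again the highest of its group. The other probe sets, 1449640_at and 1419848_x_at, had wild-type means near the floor (4.48 and 4.04) and differed by 0.52 ± 0.14 and 0.46 ± 0.17. The first is a lower bound, and the second is none, since the transgenic mean of 1419848_x_at, 4.51, was near the floor too. In these the transgenic values also lay above all wild-type values, by 0.22 and 0.21.

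Tlr8, known in human cells as a receptor for products of RNA breakdown, gave 5.54 and 5.63 for the transgenic lungs, whereas wild-type lungs gave 4.26, 4.36, 4.14 and 4.11. The wild-type mean of 4.22 was near the floor, so its difference of 1.37 ± 0.12 is a lower bound. The groups stood 1.18 apart, and the transgenic arrays were closer to each other (SD 0.064) than those of Tlr13 (SD 0.26).

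In the RefSeq annotation Tlr8 and Tlr7 are direct neighbours on the X chromosome, which also holds Tlr13. The 618 measured genes of that chromosome had a median difference of -0.014, beside -0.0047 over all genes, and 8.41% of them were higher at an adjusted p under 0.05 where 8.43% of all genes were (limma, 1 probe set a gene).

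The promoters of the receptors are shown for Tlr13 and Tlr8, which were higher in transgenic lungs, and for Tlr9, an endosomal receptor that was not set apart. These are the genes whose 250 bases before the annotated start overlap no transcript of the gene. RefSeq's table held an entry for 8 of the 10 genes. The sequences are RefSeq's of build GRCm38.p6, from chrX:106143025-106143274 on the plus strand for Tlr13, chrX:167264330-167264579 on the minus strand for Tlr8 and chr9:106222348-106222597 on the plus strand for Tlr9. Capitals mark matches to GAGGAAG, a short form of the site of the myeloid factor PU.1, or to that of STAT6, the factor activated by IL13, searched as TTC and GAA with 4 bases of any kind between them. Both strands were searched, and the motifs do not overlap in these windows.
Tlr13: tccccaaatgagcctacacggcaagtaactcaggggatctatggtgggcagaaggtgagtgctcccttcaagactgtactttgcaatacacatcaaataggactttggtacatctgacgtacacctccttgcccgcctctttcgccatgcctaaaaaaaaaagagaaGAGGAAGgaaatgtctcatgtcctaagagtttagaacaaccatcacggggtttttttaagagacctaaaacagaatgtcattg
Tlr8: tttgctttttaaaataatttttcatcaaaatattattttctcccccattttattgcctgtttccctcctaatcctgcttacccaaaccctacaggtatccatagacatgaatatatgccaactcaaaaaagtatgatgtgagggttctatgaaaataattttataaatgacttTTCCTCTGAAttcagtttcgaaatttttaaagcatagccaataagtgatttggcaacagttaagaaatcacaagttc
Tlr9: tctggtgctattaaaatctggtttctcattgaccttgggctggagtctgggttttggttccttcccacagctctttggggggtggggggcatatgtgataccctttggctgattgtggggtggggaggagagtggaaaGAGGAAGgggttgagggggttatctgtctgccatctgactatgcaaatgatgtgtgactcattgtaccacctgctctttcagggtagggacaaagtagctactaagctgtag
The PU.1 motif stood 83 bases before the start of Tlr13, 112 before that of Tlr9 and 23 before the start of 1 of the 2 Tlr1 windows, and 10.6% of all 32851 promoter windows of this length hold it. The STAT6 motif stood 77 bases before the start of Tlr8 and in no other receptor window, and 5.85% of all windows hold it. A match is a description of the letters and not a measured binding site, and the motif shared by Tlr13 and Tlr9 stands before genes with differences of 2.49 and 0.16.

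Tlr9 and Tlr3, the other endosomal receptors, showed no separation or a narrow one. Tlr9, the receptor for unmethylated CpG DNA, gave 4.99 and 5.30 for the transgenic lungs, whereas wild-type lungs gave 5.25, 4.94, 4.98 and 4.77, which is a difference of 0.16 ± 0.16. Its groups overlapped and its values lay not far above the floor. Tlr3, the receptor for double-stranded RNA, gave 5.80 and 6.08 for the transgenic lungs, whereas wild-type lungs gave 6.45, 6.08, 6.31 and 6.12 at 1422781_at. This difference of -0.30 ± 0.15 left the groups only 0.0035 apart. At the brighter probe set 1422782_s_at the groups overlapped, with 7.96 and 7.77 in transgenic and 8.001, 7.69, 7.997 and 8.14 in wild-type arrays (difference -0.094 ± 0.15).

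**Figure D2:**
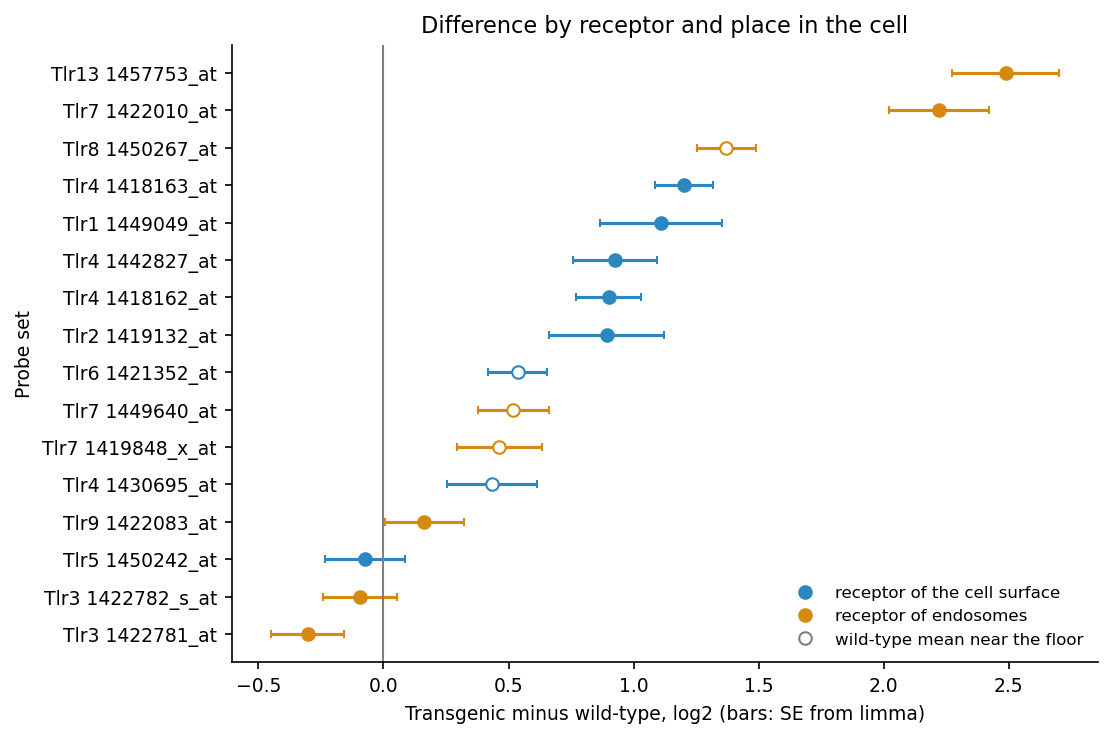
Transgenic minus wild-type difference on the log2 scale (horizontal axis) for each receptor probe set (vertical axis), with bars for the SE from limma, blue for receptors of the cell surface, orange for those of endosomes and open circles where the wild-type mean is near the floor. Tlr13 at 2.49 and Tlr7 at 2.22 lead, while the endosomal Tlr9 and Tlr3 stand at 0.16 and below.

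Tlr4, the surface receptor that recognises bacterial lipopolysaccharide, was measured by 4 probe sets. Its probe set 1418163_at gave 7.10 and 7.05 for the transgenic lungs, whereas wild-type lungs gave 5.96, 5.72, 5.95 and 5.84, which is a difference of 1.20 ± 0.12. Probe set 1418162_at read 7.79 and 7.45 against 6.68, 6.85, 6.68 and 6.67 (0.90 ± 0.13), and 1442827_at read 6.26 and 6.42 against 5.10, 5.64, 5.33 and 5.58 (0.93 ± 0.17). The groups did not overlap in these 3. The fourth Tlr4 probe set, 1430695_at, was near the floor in both groups (means of 3.44 and 3.01), so that its difference is no bound, and its groups overlapped.

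Tlr2 pairs with Tlr1 to bind triacylated and with Tlr6 to bind diacylated lipopeptides, and Tlr1 and Tlr6 are direct neighbours in the RefSeq annotation. Tlr2 gave 8.57 and 8.25 for the transgenic lungs, whereas wild-type lungs gave 7.28, 7.14, 7.98 and 7.67, which is a difference of 0.89 ± 0.23 with the groups 0.26 apart. Tlr1 read 6.29 and 5.74 against 4.73, 4.53, 4.96 and 5.40, a difference of 1.11 ± 0.25 with the groups 0.34 apart. Its wild-type mean of 4.91 lay not far above the floor. Wild-type replicates 3 and 4 were the higher wild-type arrays for both Tlr2 and Tlr1. Tlr6 read 5.22 and 5.09 against 4.49, 4.61, 4.72 and 4.64, and its difference of 0.54 ± 0.12 is a lower bound, because the mean of the wild-type lungs, 4.62, lay at the edge of the floor. Tlr1 and Tlr6 are close relatives in sequence, and whether their probe sets keep them apart was not tested.

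Tlr5, the flagellin receptor, was the surface receptor without a probe set that passed as higher. It gave 6.06 and 5.81 for the transgenic lungs, whereas wild-type lungs gave 5.91, 5.89, 5.90 and 6.34, and the groups overlapped (difference -0.073 ± 0.16). Tlr12, a further mouse receptor that was not among the chosen genes, was near the floor in both groups at both of its probe sets, with differences of 0.083 ± 0.12 and 0.021 ± 0.13 (adjusted p = 0.735 and 0.944 in limma's fit of all probe sets).

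Arrays of a genotype also differed among themselves. Among the wild-type arrays replicate 4 gave the highest value for 6 of the 16 probe sets and replicate 2 the lowest for 8, beside 27.5% and 27.8% of all probe sets. Transgenic replicate 1 was higher than replicate 2 for 11 of the 16, beside 49.7% of all.

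The authors' deposited table of comparisons gives the same differences for these probe sets. Its q-values, for which the sources used here name no method, were under 0.05 for 1 of the 16, Tlr4 at 1418163_at (0.0242), and between 0.0894 and 0.495 for the others.

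Over the 6 arrays the genes most like Tlr13 in pattern were Tyrobp, the DAP adaptor of myeloid receptors (Pearson's r 0.9998), the leukocyte tetraspanin gene Cd53 (0.9986) and the proton pump subunit gene Atp6v1e1 (0.998). The genes most like Tlr3 at 1422781_at were Pdk3 (0.9955), Sike1 (0.9954) and Gpr19 (0.9853). Such values describe 6 arrays that share a split into 2 genotypes, and 1351 genes had an r over 0.9 with Tlr13.

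Markers of cells that carry these receptors differed between the genotypes as well. Of all 18193 genes 8.43% were higher and 10.5% lower by the rule used for the counts below (limma, adjusted p under 0.05). Of 7 measured alveolar macrophage markers 5 rose and 1, Siglecf, fell (-0.77 ± 0.21). The summed level of the 7 was 41690 to 43420 linear units in the 2 transgenic arrays, against 12990 to 18580. The brightest of them, Chil3 (14.86 and 14.82 against 13.21 to 13.56), weighs most in these sums. The highest wild-type sum was that of replicate 4, where Fabp4 read 12.50, beside 10.33 to 11.15 in the other wild-type arrays. Of 9 markers of monocytes and interstitial macrophages 6 rose and 0 fell (limma, 0 also at an unadjusted p under 0.05), with sums of 8157 to 9674 and 3533 to 3954. None of these macrophage markers was near the floor in all arrays. Dendritic cell markers summed to 598.5 to 683 (transgenic) and 373.1 to 428.7 (wild-type), with 2 of 5 higher, Batf3 (2.48 ± 0.19) and Flt3 (0.41 ± 0.12). Without Batf3, left out after its value was seen, the sums were 279.9 to 284.8 and 302.5 to 370.5, and Zbtb46 differed by -0.55 ± 0.17 and did not pass (adjusted p = 0.054). B cell markers summed to 1434 to 1658 and 637.4 to 915.5, with 2 of 6 higher, namely Fcer2a (3.53 ± 0.13) and Cd22 (1.31 ± 0.15). Cd79b differed by 0.48 ± 0.15, with both transgenic values above all wild-type values, and did not pass (limma, adjusted p = 0.060). The B cell genes Ms4a1 (0.11 ± 0.27), Cd79a (0.090 ± 0.15) and Pax5 (-0.12 ± 0.20, near the floor in both groups) did not pass either. Sums of neutrophil markers overlapped between genotypes (3234 to 4056 and 1699 to 4902) and were higher in wild-type replicates 3 and 4 than in 1 and 2, as Tlr1 and Tlr2 were, and so were the sums of B cell, plasmacytoid dendritic cell and fibroblast markers. Markers of plasmacytoid dendritic cells, which are rich in Tlr7 and Tlr9, had 0 of 6 higher and 0 lower (limma, likewise 0 and 0 at an unadjusted p under 0.05), with sums of 2235 to 2344 and 2251 to 3018. These counts rest on 1 probe set a gene. Of Tcf4, the brightest of these markers, 3 of 6 probe sets were lower in the fit of all probe sets. Tcf4 and Bst2 weigh most in the plasmacytoid sums, which therefore say little of the dimmer markers. Siglech read 5.19 and 5.37 in the transgenic and 5.22 to 5.49 in the wild-type arrays, and Ccr9 was near the floor in both groups. Some lists of lung structure were lower in the transgenic lungs. Club and ciliated cell markers summed to 35880 to 47200 and 59270 to 75970. Endothelial markers summed to 2842 to 3282 and 4688 to 6690, with 3 of 6 lower, and alveolar type I markers to 36410 to 40850 and 52420 to 57240, with 3 of 5 lower. Alveolar type II markers summed higher in the transgenic lungs, to 73380 to 74250 and 65650 to 69910. Of these 4 genes 0 were higher and 0 lower (limma, 1 higher at an unadjusted p under 0.05). Fibroblast marker sums overlapped (10780 to 14220 and 7494 to 14470), with 1 of 6 higher and 1 lower. In whole lung a larger number of cells of a type and more RNA per cell cannot be told apart. The part of these cells in the receptor values was not tested.

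**Figure D3:**
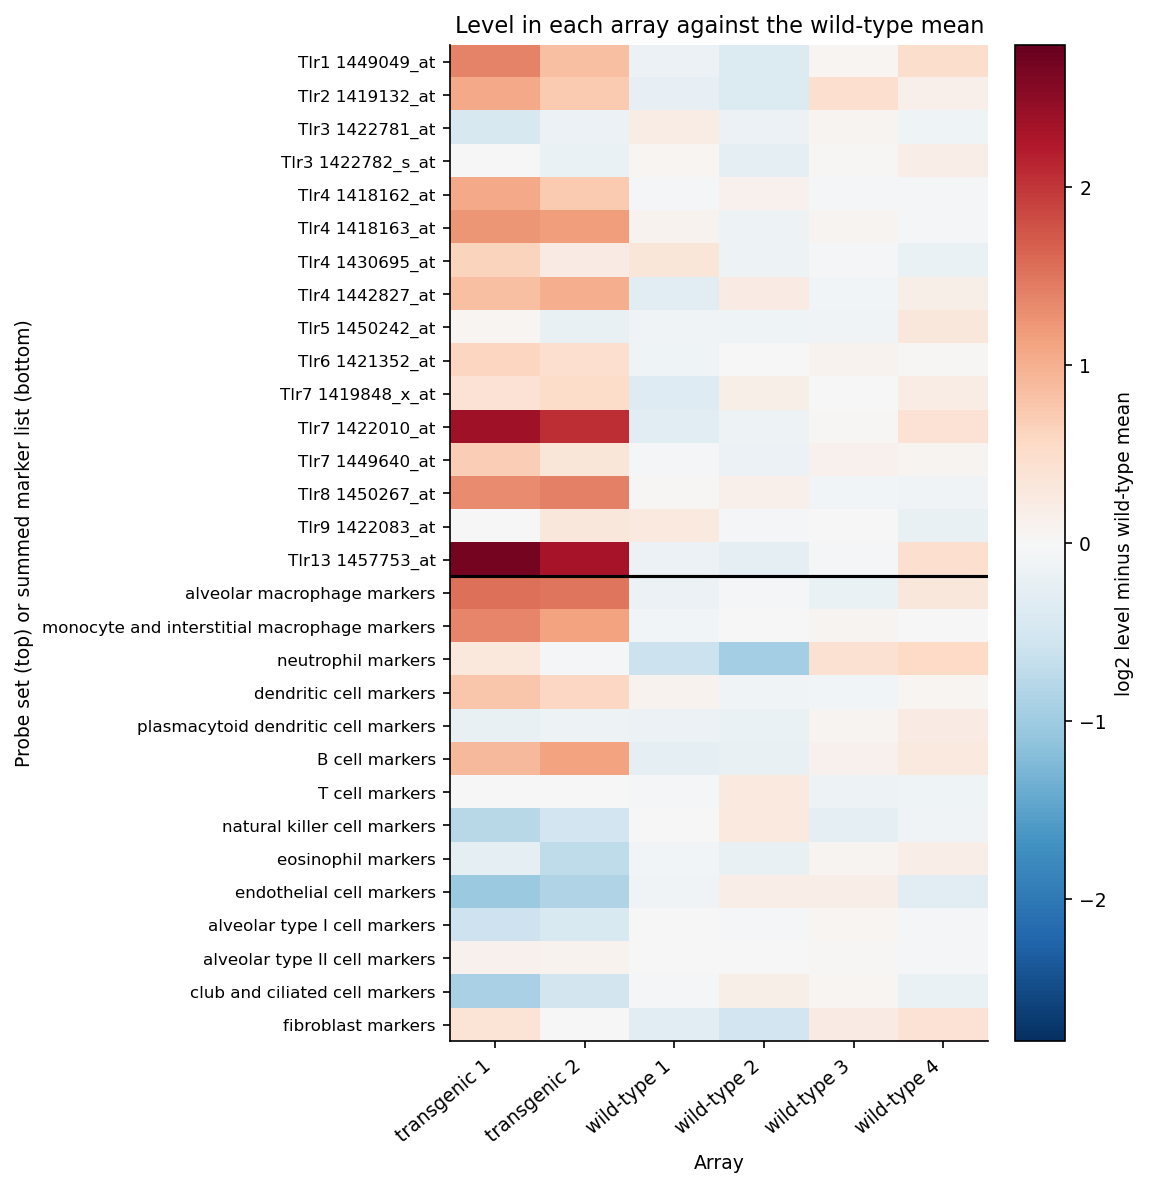
Level in each of the 6 arrays (columns) for the 16 receptor probe sets (rows above the line) and for summed cell marker lists (rows below it), as the log2 value minus the wild-type mean, or log2 of the sum minus log2 of the wild-type mean sum. Tlr13 and Tlr7 at 1422010_at are the darkest red in both transgenic arrays, the macrophage lists are red there as well, and heart and adipocyte lists are left out.

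Genes of the receptor pathway, in lists chosen with earlier results known, were read from 1 probe set each and tested with limma over 18193 genes, of which 8.43% passed as higher and 10.5% as lower (adjusted p under 0.05). Of 153 listed genes 139 were measured, and of these 49 rose, 6 fell and 84 did not pass, with a median difference of 0.31 beside -0.0047 over all genes. Leaving out 1 array gave 36 to 51 higher and 3 to 6 lower pathway genes. Without transgenic replicate 1, which gave 36 and 3, the calls over all genes were 731 higher (4.02%) and 580 lower (3.19%) in place of 1534 and 1914. Without transgenic replicate 2 they were 902 and 860, and without wild-type replicate 1 they were 1133 and 1245, with 3 pathway genes lower in both cases.

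**Figure D4:**
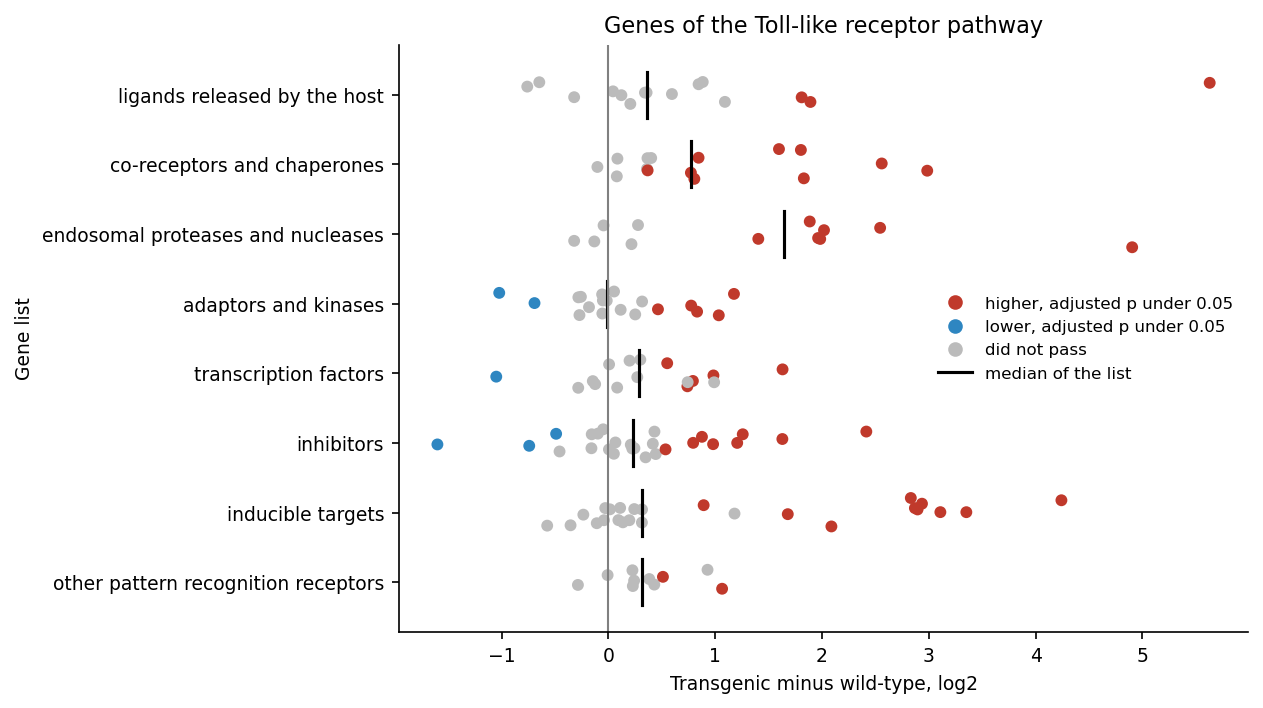
Transgenic minus wild-type difference on the log2 scale (horizontal axis) of pathway genes by list (vertical axis, points spread for sight), red where higher and blue where lower at an adjusted p under 0.05, grey where not passed, with a black line at each list's median. Endosomal proteases and nucleases have the highest median, 1.64, and adaptors and kinases the lowest, -0.016.

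Among ligands released by the host, 3 of 15 measured genes rose, 12 did not pass and 0 fell (limma, 1 lower at an unadjusted p under 0.05), with a median of 0.36. The acute-phase gene Saa3 rose by 5.63 ± 0.41 (adjusted p = 6.5e-05), the matrix protein gene Fn1 by 1.89 ± 0.13 (5.6e-05) and the fibrinogen gene Fga by 1.81 ± 0.25, a lower bound because its wild-type level was near the floor (0.0018). Leaving out wild-type lung 2 or 4 gave 6 or 5 risen ligands.

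Co-receptors and chaperones rose in 9 of 15 measured genes, with 0 lower (limma, likewise 0 at an unadjusted p under 0.05) and a median of 0.77. Cd14, which hands lipopolysaccharide to the Tlr4 complex, read 10.52 and 10.33 in the transgenic and 8.33 to 8.79 in the wild-type arrays, a rise of 1.83 ± 0.16 (adjusted p = 0.00017). Ly96, the subunit of that complex that binds lipopolysaccharide, rose by 0.84 ± 0.12 (0.0025), beside 0.90 to 1.20 for the 3 brighter Tlr4 probe sets. Unc93b1, which carries the nucleic acid receptors from the endoplasmic reticulum to endosomes, rose by 0.80 ± 0.11 (0.0019). The integrin gene Itgb2 rose by 2.99 ± 0.12 (3.5e-06) and Slc15a3, a transporter of the endolysosome, by 2.56 ± 0.16 (2.8e-05).

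Endosomal proteases and nucleases, some of which cut the receptors or their ligands, had the highest median of the lists. Of its 12 measured genes 7 rose, 5 did not pass and 0 fell (limma, likewise 0 at an unadjusted p under 0.05). The cathepsin genes Ctsk and Ctsb rose by 4.90 ± 0.17 (adjusted p = 2.2e-06) and 2.02 ± 0.12 (2.1e-05), and the nuclease gene Pld3 by 2.54 ± 0.13 (1.3e-05). Leaving out any 1 array left the count at 7.

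Adaptors and kinases had 5 of 19 measured genes higher, 2 lower and 12 not passed, with a median of -0.016. Ikbke, a kinase upstream of interferon regulatory factors, rose by 1.18 ± 0.12 (adjusted p = 0.00054), the tyrosine kinase gene Btk by 1.03 ± 0.23 (0.015), and the ubiquitin ligase gene Peli2 fell by 1.02 (SE 0.13, 0.0016). Myd88, the shared adaptor, read 8.98 and 9.18 in the transgenic lungs and 8.49 to 8.84 in the wild-type lungs, and its difference of 0.46 ± 0.14 passed narrowly (0.046). Without transgenic lung 1 or 2 the Myd88 difference was 0.56 or 0.36, and it passed in neither case. It also no longer passed without wild-type lung 1 (adjusted p = 0.096), 3 (0.11) or 4 (0.074), or when arrays were centred on the median (0.053). Nor did it pass when each gene was read from its probe set of largest variance (0.065). Myd88 has 1 probe set, so its difference stayed at 0.46 there and only the fit over the other genes changed. In the fit of all probe sets, used for the receptors, this probe set did not pass either. Ticam1, the adaptor of Tlr3, differed by 0.32 ± 0.11 and did not pass (0.073), but passed after quantile normalization (0.038) and among features at or above the median (0.044). It also passed when genes were read as the mean of their probe sets (0.050), although Ticam1 has 1 probe set and its difference was unchanged. Leaving out transgenic lung 1, transgenic lung 2 or wild-type lung 1 gave 1, 2 or 3 risen genes in place of 5, and Btk did not pass without transgenic replicate 1 (0.15).

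Transcription factors downstream had 5 of 16 measured genes higher and 1 lower, with a median of 0.28, and 2 were higher when only features at or above the median were tested. The myeloid factor gene Spi1, which encodes PU.1, read 8.58 and 8.78 in the transgenic and 6.88 to 7.14 in the wild-type arrays, a rise of 1.63 ± 0.12 (adjusted p = 7.6e-05). The NF-κB subunit gene Relb rose by 0.98 ± 0.11 (0.00078). Jun fell by 1.05 (SE 0.28, 0.035), a call that ended without transgenic replicate 1 (0.17) or 2 (0.16), without wild-type replicate 1 (0.056) with the mean of its probe sets (0.18) and with that of largest variance (0.46).

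Inhibitors of the pathway moved both ways, with 8 of 26 measured genes higher, 3 lower and a median of 0.23. The inhibitory receptor gene Cd300a rose by 2.41 ± 0.23 (adjusted p = 3.0e-04) and Nfkbie, an inhibitor of NF-κB, by 1.63 ± 0.17 (0.00051), whereas the phosphatase gene Dusp1 fell by 1.60 (SE 0.39, 0.025). The call of Dusp1 ended without transgenic replicate 1 (0.12) or 2 (0.15) and without wild-type replicate 1 (0.063). Irak3, a kinase-dead inhibitor of the receptor complex, differed by 0.44 ± 0.16 (0.091) and Tollip by -0.100 ± 0.12 (0.61), and neither passed. Without transgenic replicate 1 or 2 the risen inhibitors numbered 5 and 4, and the fallen ones were 1 without transgenic replicate 1, transgenic replicate 2 or wild-type replicate 1.

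Of 25 measured inducible targets 10 rose, 0 fell and 15 did not pass (limma, 1 lower at an unadjusted p under 0.05), with a median of 0.31. The chemokine genes Ccl3 and Ccl2 rose by 4.24 ± 0.32, a lower bound from near the floor, and 3.11 ± 0.22, and the iron-binding protein gene Lcn2 by 3.35 ± 0.29 (adjusted p of 1.6e-04 or less). Il6 rose by 2.94 ± 0.29 (3.4e-04), also a lower bound. Tnf, a textbook target of the receptors, read 5.17 and 5.19 in the transgenic and 4.66 to 5.32 in the wild-type arrays and did not pass (0.31 ± 0.19, adjusted p = 0.29). Without wild-type replicate 3 it passed (0.040). With only features at or above the median tested, 2 targets rose. These targets also respond to other signals.

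Other pattern recognition receptors had 2 of 10 measured genes higher and 0 lower (limma, 1 lower at an unadjusted p under 0.05), with a median of 0.31. With the probe set of largest variance for each gene, 1 gene of the list was lower. Of the 3 probe sets of Rigi, 1 was lower in the fit of all probe sets. Sting1, the adaptor of cytosolic DNA sensing, rose by 1.06 ± 0.20 (adjusted p = 0.0079) and the cytosolic DNA sensor gene Aim2 by 0.51 ± 0.12 with both means near the floor, which is no bound (0.020). Without transgenic replicate 1 neither passed (0.087 and 0.10), and Aim2 did not pass without transgenic replicate 2 (0.12) or wild-type replicate 1 (0.056).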

How the data were processed

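The deposited values are log2 values that the authors made with RMA, per the submitters' processing notes, which give no version. The authors' table, per the file headers, holds a log2 difference and a q-value a probe set. Its 6 single-array columns match no label and were not used. Of 45037 probe sets 34945 carried 1 symbol, 932 several and 9160 none. Symbols follow the platform annotation, updated by Entrez ID in RefSeq's table (GRCm38.p6).

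All 45037 probe sets, and separately 18193 genes (the probe set with the highest mean), were fitted with limma 3.58.1 in R 4.3.3 (lmFit, eBayes; Benjamini-Hochberg adjustment; residual degrees of freedom, 4) and a threshold of 0.05, and the procedure was tested on simulated data. The receptors, the gene lists and the tests were chosen with earlier results of these data known. Named are all receptors, up to 3 genes a list with the largest passed difference, and Cd14, Ly96, Unc93b1, Myd88, Ticam1, Irak3, Tollip, Tnf, Il6, Tlr11 and Tlr12. Tlr11 and the other unmeasured pathway genes, 14 in all, were not analysed here. The marker genes printed, the X and Y check, 2 symbol updates and the promoters printed were chosen after their values were seen. Alternatives were other normalizations, filters, moderation, gene summaries, a replicate block and leaving out arrays. Figures used matplotlib 3.10.9.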

Additional observations from a re-analysis of the deposited data

Results flagged for a closer look

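Of 64 sets of wild-type values checked for an array far from the other 3 with Dixon's test, 4 were found, where chance gives about 1 in 20. Tlr4 at 1418162_at gave 6.85 for wild-type lung 2, beside 6.67 to 6.68. Tlr5 gave 6.34 for wild-type lung 4, beside 5.89 to 5.91. Fga gave 2.98 for wild-type lung 3, beside 3.38 to 3.45, all near the floor. Ccl3 gave 4.63 for wild-type lung 3, beside 3.49 to 3.67.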

How the results depend on the processing

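Of the 16 receptor differences 14 kept their direction under every alternative run, and those of Tlr5 and of Tlr3 at 1422782_s_at, which crossed 0, ran from -0.20 to 0.051 and from -0.19 to 0.0022 when 1 array was left out. The count of receptor probe sets past the threshold was 5 to 9 with 1 array left out, 6 among features at or above the median, 7 without wild-type replicates 2 and 4 together and 11 with the replicate number as a block. Replicates 3 and 4 exist only among the wild-type arrays, so the block fit compared replicates 1 and 2 of each genotype. It had fewer residual degrees of freedom than the main fit. The replicate numbers are not stated to pair animals, and the difference between transgenic replicates 1 and 2 correlated with that between wild-type replicates 1 and 2 at 0.168. Under the block Myd88 did not pass (adjusted p = 0.11), Tnf did (0.046) and 59 pathway genes rose and 7 fell. Of the lists, transcription factors then had 9 risen genes in place of 5, host ligands 6 in place of 3 and other pattern recognition receptors 4 in place of 2, and 2 inducible targets in place of 0 fell. Risen pathway genes numbered 31 among features at or above the median, where fewer genes were tested, and 36 to 51 with 1 array left out, when 3 to 6 fell. Without wild-type replicates 2 and 4 there were 49 and 6. Tlr12 turned to -0.020 after quantile normalization, to -0.11 without transgenic replicate 1 and to -0.012 without wild-type replicate 1, within a range of -0.11 to 0.147 over single arrays left out, and the cause was not tested. With the floor at the 90th percentile, 4.18, 2 receptor probe sets and not 5 had wild-type means near it. Tlr8 (4.22), Tlr6 (4.62) and Tlr7 at 1449640_at (4.48) then lay above it, so their differences would not be called lower bounds. Signal over the floor limits Tlr1, Tlr6, Tlr8, Tlr9 and the dimmer probe sets of Tlr4 and Tlr7.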
